A study of Mus musculus with 15 samples.

Results

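The genes described here encode the machinery that releases neurotransmitter from the nerve terminal. The set holds 38 genes, taken by name from the 53278 gene symbols of the deposited count table, and all 38 passed the filter on low counts that left 18369 genes for testing. By role, 10 encode scaffolds and priming factors of the active zone, 8 encode the fusion machinery, 13 encode other proteins of or on the synaptic vesicle, 3 encode vesicular transmitter transporters and 4 act in the recovery of vesicle membrane. RNA came from the cortex of 15 male C57BL/6J mice aged 10 to 20 weeks, 5 in each of 3 groups, with 1 library per mouse. The control group ate control food. The PLX3397 group ate food with PLX3397 for 9 days, and the repopulation group ate the same food for 9 days followed by 9 days of control food. No group carried a transgene or a deletion. PLX3397, given in food, blocks CSF1R, a receptor without which microglia die. It is used to remove them, after which they grow back once the compound is withdrawn.

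Vesicles loaded with transmitter dock at the active zone, a dense protein layer opposite the postsynaptic receptors. Very large scaffolds such as Piccolo and Bassoon organise that layer, RIM and Munc13 proteins tether and prime vesicles there, and the SNARE proteins of vesicle and plasma membrane zip together to fuse the membranes when synaptotagmin senses calcium. The membrane is then retrieved by endocytosis, the vesicle is acidified by a proton pump and it is refilled by a transporter that differs between glutamate and GABA neurons. In cortex nearly all of these genes are products of neurons.

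The promoters of 4 members are shown because they show the contrast described below between long and short messenger RNAs after repopulation: the long Pclo and Dmxl2 transcripts were higher than in control, and the short Rab3a and Syp transcripts were lower. Each line holds the 250 bases before the start of the gene in RefSeq, 5′ to 3′ on the strand of the gene, from build GRCm38.p6. Capitals mark the GC box GGGCGG, a short element of many promoters without a TATA box, read on either strand.
Pclo, chr5:14514668-14514917, plus strand: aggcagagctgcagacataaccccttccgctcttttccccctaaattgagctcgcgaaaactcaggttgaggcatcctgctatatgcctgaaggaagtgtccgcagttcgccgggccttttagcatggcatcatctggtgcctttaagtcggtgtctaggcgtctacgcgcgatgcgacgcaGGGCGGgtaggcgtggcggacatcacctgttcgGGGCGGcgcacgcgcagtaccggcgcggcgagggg
Dmxl2, chr9:54501627-54501876, minus strand: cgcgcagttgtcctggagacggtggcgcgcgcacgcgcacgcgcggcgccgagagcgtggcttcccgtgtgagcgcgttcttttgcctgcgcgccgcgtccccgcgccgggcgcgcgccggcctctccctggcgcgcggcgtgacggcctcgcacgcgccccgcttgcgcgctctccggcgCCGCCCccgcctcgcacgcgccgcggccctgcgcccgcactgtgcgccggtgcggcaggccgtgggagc
Rab3a, chr8:70754453-70754702, plus strand: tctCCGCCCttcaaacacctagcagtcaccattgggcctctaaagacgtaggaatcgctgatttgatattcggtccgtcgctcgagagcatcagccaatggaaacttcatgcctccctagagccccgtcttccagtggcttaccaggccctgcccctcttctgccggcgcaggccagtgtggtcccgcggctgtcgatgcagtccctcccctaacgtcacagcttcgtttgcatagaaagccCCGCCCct
Syp, chrX:7638330-7638579, plus strand: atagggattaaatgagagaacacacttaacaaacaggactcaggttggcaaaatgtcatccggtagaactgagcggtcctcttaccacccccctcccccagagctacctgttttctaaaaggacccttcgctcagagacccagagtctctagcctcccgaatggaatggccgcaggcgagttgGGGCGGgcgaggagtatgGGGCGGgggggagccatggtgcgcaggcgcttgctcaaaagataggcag
A GC box occurred at least once in all 4 sequences, whichever way the gene moved. In GENCODE, Syp starts at 7638471 and Rab3a at 70754679, inside the sequences shown. The GC boxes of Syp and the last of Rab3a lie after those starts. Over the 32 members with an entry in the RefSeq table, 21 held it, and 32.7% of all 32851 promoters of the same length did. Each member had 1 start, while a gene could have several among all promoters. For some members, such as Cplx2 and the vesicular transporters, the bases just after the start were in no GENCODE transcript of the gene. The TATA box TATAAA was found in 1 member, Sv2b, against 12.4% of all promoters. The cyclic AMP response element TGACGTCA stood in Syn1 and Sh3gl2, and 1.55% of all promoters held it. The left part of the element bound by the repressor REST, TTCAGCACC, stood in Syn1 and Ppfia3 and in 0.301% of all promoters. All motifs were searched on both strands. In no member did matches of different motifs share bases. The GC content had a median of 62.2% in the members and 52.4% over all promoters.

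Libraries of the control group held 24347802 to 48617851 counts, those of the PLX3397 group 23413551 to 29482140 and those of the repopulation group 26837517 to 29582274. Values are CPM, the count scaled to a common library total with TMM factors, which lay between 0.978 and 1.009. Csf1r itself, the label check, stood at 84.9 ± 4.09 CPM (SD, n = 5) in control, 0.215 ± 0.12 on PLX3397 and 104.9 ± 5.47 after repopulation. Neuronal content, read from 10 markers of cortical glutamate neurons of which none was at 0, had summed levels of 701 to 803, 690.0 to 798 and 726 to 777 CPM in the same order. The sums of 10 GABA neuron markers were 958 to 1031, 938 to 1099 and 1028 to 1172 CPM. Of those 10, Pvalb, Sst, Vip and Npy were called lower than control on PLX3397 and after repopulation, Reln was called higher in each, and Gad1 and Gad2 were called higher after repopulation. The 10 oligodendrocyte markers summed to 5289 to 5571 CPM in control mice, 5658 to 6872 CPM in PLX3397 mice and 4782 to 5741 CPM in repopulation mice. The sums of 6 oligodendrocyte precursor markers were 167 to 206, 76.7 to 126 and 173 to 188 CPM, and those of 6 endothelial markers were 182 to 202, 159.7 to 174 and 198 to 206 CPM. The part of these cell types in the results was not tested. In 4 libraries, mice 1, 2 and 3 on PLX3397 and mouse 4 of repopulation, 7 choroid plexus markers summed to 85.9 to 555 CPM against 8.87 to 25.0 in the other libraries. Since the tissue was taken whole, fewer cells of a type and less RNA per cell cannot be told apart in any value below.

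The 38 genes together held a similar share of all reads in each group, and single members moved in opposite directions. The set took 2.07% to 2.19% of the counts in control mice, 2.05% to 2.17% in PLX3397 mice and 2.09% to 2.18% in repopulation mice. A gene was called where the quasi-likelihood test of edgeR gave a p under 0.05 after Benjamini-Hochberg adjustment over all 18369 genes. On PLX3397, 11 members were higher than in control and 1 was lower, where 8.19% and 8.35% of all tested genes were called in those directions. After repopulation, 12 members were higher than in control and 8 were lower, with 13.9% and 15.2% of all genes. Between repopulation and PLX3397, 5 members were higher and 3 were lower after repopulation, with 7.61% and 8.98% of all genes.

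The 2 comparisons with control share their 5 control libraries, so that each is given by its own calls. Higher than in control on PLX3397 were Pclo, Rims2, Erc2, Nsf, Syn3, Sv2b, Syt1, Dmxl2, Slc17a6, Sh3gl2 and Synj1, and Slc17a7 was lower. Higher after repopulation were Pclo, Rims1, Rims2, Erc2, Ppfia2, Nsf, Syn3, Syt1, Dmxl2, Slc17a6, Sh3gl2 and Synj1. Lower after repopulation were Vamp1, Vamp2, Stx1a, Napa, Cplx1, Syp, Rab3a and Slc17a7. By the ranges of the 5 libraries per group, 7 members lay wholly above control on PLX3397 and 1 wholly below, where 4.99% and 5.38% of all genes did. After repopulation, 11 members lay wholly above control and 7 wholly below, with 10.5% and 11.8% of all genes. Against PLX3397, 4 members lay wholly above and 2 wholly below after repopulation, with 5.57% and 6.24% of all genes.

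**Figure D1:**
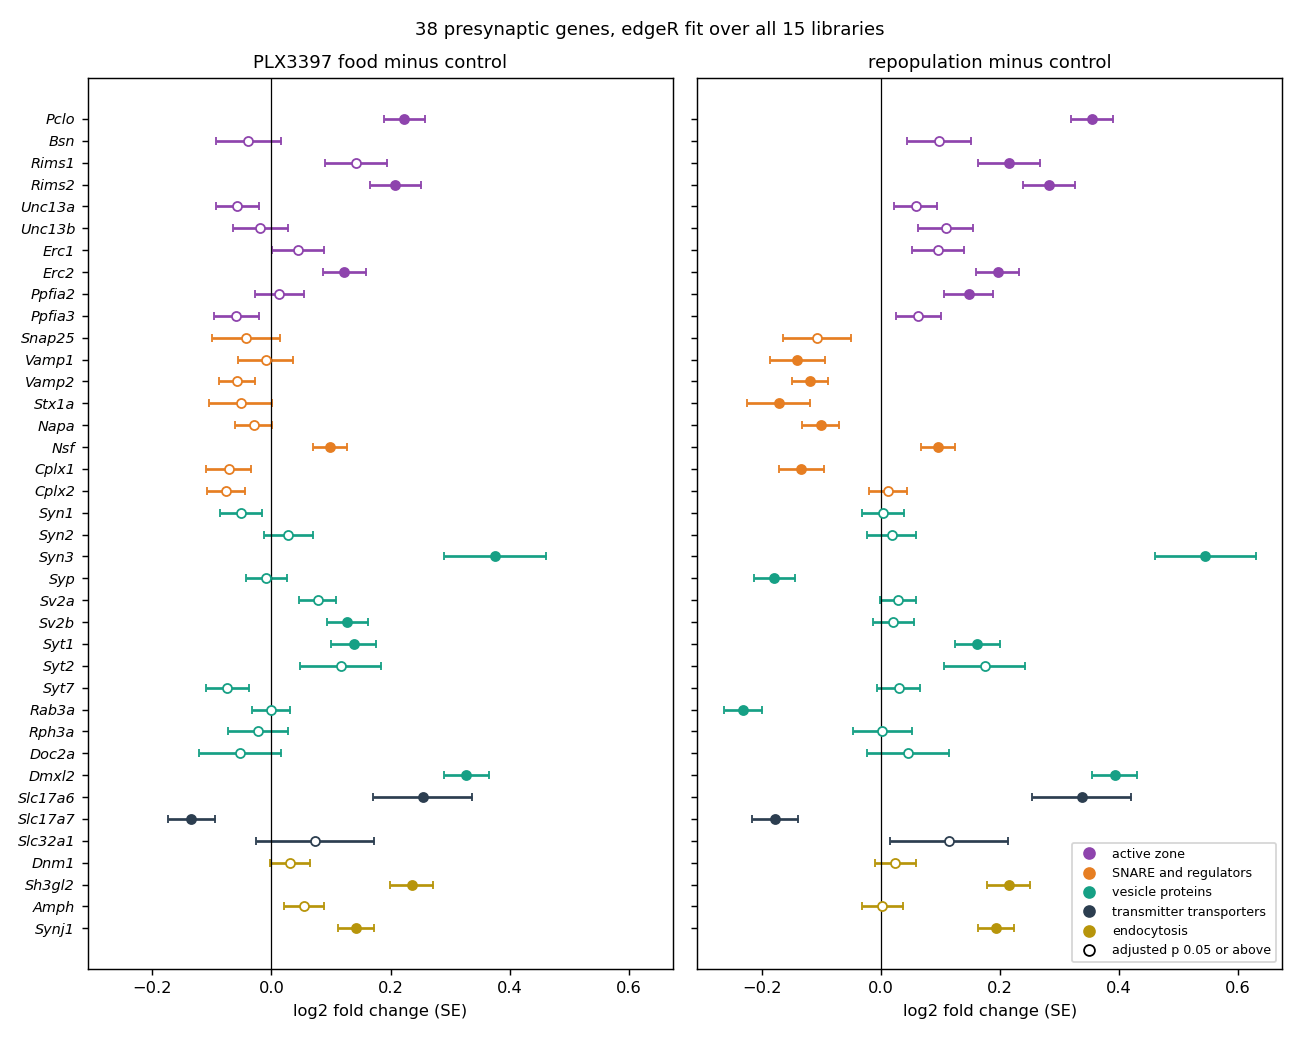
Log2 fold change of each of the 38 members against control on PLX3397 and after repopulation, grouped by role. Points are edgeR estimates over 5 against 5 mice, bars are standard errors, and filled points have an adjusted p under 0.05. After repopulation the 10 active zone genes lie above 0, 5 of them filled, and 5 of the 8 fusion genes are filled below it.

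Active zone transcripts were higher after repopulation in 5 of 10 members, Pclo, Rims1, Rims2, Erc2 and Ppfia2, and lower in none. On PLX3397 the count was 3 of 10, Pclo, Rims2 and Erc2, again with none lower. Over all tested genes 13.9% were higher and 15.2% lower after repopulation, and 8.19% and 8.35% on PLX3397. The 10 messenger RNAs are 4647 bp or longer. Of protein-coding genes from 4 to 8 kb and of 8 kb or more, 28.3% and 56.8% were higher after repopulation. On PLX3397 these shares were 17.0% and 32.4%. The median log2 fold change of the 10 was 0.03 on PLX3397 and 0.13 after repopulation, beside -0.002 and 0.007 over all tested genes. The medians of all protein-coding genes after repopulation were 0.08 from 4 to 8 kb and 0.18 at 8 kb or more. With the correction for length and GC content described below, 1 of the 10 was higher and 2 were lower on PLX3397 (median -0.01). The shares of all genes were then 4.39% and 6.76%. After repopulation 2 of the 10 were higher and none lower (median 0.02), with 8.15% and 13.9% of all genes. Between the 2 treated groups, Pclo, Unc13a, Ppfia2 and Ppfia3 were higher after repopulation, with 7.61% of all genes. With the 4 libraries rich in choroid plexus markers left out, none of the 38 members was called higher in that last comparison. The number of mice was then also smaller, and calls over all genes fell. There 589 of 19181 genes were higher and 260 lower, in place of 1398 and 1649 of 18369.

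Pclo encodes Piccolo, a very large scaffold of the active zone (ENSMUSG00000061601.15, chromosome 5, 14514918 to 14863459, plus strand, GRCm38). In order of mouse number, here and below, Pclo stood at 362, 388, 365, 385 and 378 CPM in control. The PLX3397 mice had 444, 399, 441, 447 and 460.1 CPM. After repopulation the values were 472, 492, 471, 488 and 479 CPM. All 5 treated mice of each group lay above every control, and all repopulation mice lay above every PLX3397 mouse. The log2 fold change of Pclo was 0.22 ± 0.03 (SE; edgeR adjusted p = 5.36e-05) on PLX3397 and 0.35 ± 0.03 (adjusted p = 5.0e-07) after repopulation. With the length and GC correction the first of these was 0.04 and not called. Between the treated groups it was 0.13 ± 0.03 (edgeR adjusted p = 0.01), and without the 4 choroid-rich libraries it was not called.

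Rims2, a RIM protein that links vesicles to calcium channels (chromosome 15, 39198261 to 39684372, plus strand), was at 114, 128, 118, 133 and 126 CPM in control. On PLX3397 it was at 142, 129, 151, 143 and 150.0 CPM, and after repopulation at 149, 152, 151, 154 and 147 CPM. Only mouse 2 on PLX3397 fell within the control range, and the repopulation mice lay wholly above it. Rims2 was higher by 0.21 ± 0.04 log2 units (edgeR adjusted p = 0.00132) and 0.28 ± 0.04 (adjusted p = 2.45e-05), in that order.

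Bassoon, a related scaffold almost as large as Piccolo, was not called in any comparison. Bsn (chromosome 9, 108096022 to 108190384, minus strand) was at 743, 775, 714, 757 and 772 CPM in control and at 815, 621, 718, 768 and 739.5 CPM on PLX3397. After repopulation Bsn had 826, 781, 816, 852 and 749 CPM. The groups overlapped, and mouse 2 on PLX3397 was the lowest of all. The log2 difference from control was -0.04 (95% interval -0.14 to 0.07; edgeR adjusted p = 0.692) on PLX3397 and 0.10 (-0.01 to 0.20; adjusted p = 0.195) after repopulation.

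Among the other active zone members, Rims1 was at 299.8 ± 19.5 CPM in control and 348 ± 9.27 after repopulation (SD, n = 5), a log2 difference of 0.22. Erc2, an ELKS scaffold, went from 201 ± 4.9 to 219 ± 13.3 on PLX3397 and 230.3 ± 5.28 CPM after repopulation. With the correction none of these calls was made: Rims1 was at 0.10 after repopulation and Erc2 at 0.04 on PLX3397 and 0.08 after repopulation. The liprin Ppfia2 was at 113 ± 5.02 CPM in control and 125 ± 4.08 after repopulation. Its log2 difference after repopulation was 0.15, and -0.02 with the correction. Of its exon bases, 22.3% overlap Acss3 on the opposite strand, and whether reads were counted by strand is not given in the sources used here. The Munc13 genes Unc13a and Unc13b, the ELKS gene Erc1 and the liprin Ppfia3 were not called against control in either group. Their log2 differences from control lay between -0.06 and 0.11. Of the exon bases of Erc1, 11.8% overlap Gm44317 on the opposite strand.

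**Figure D2:**
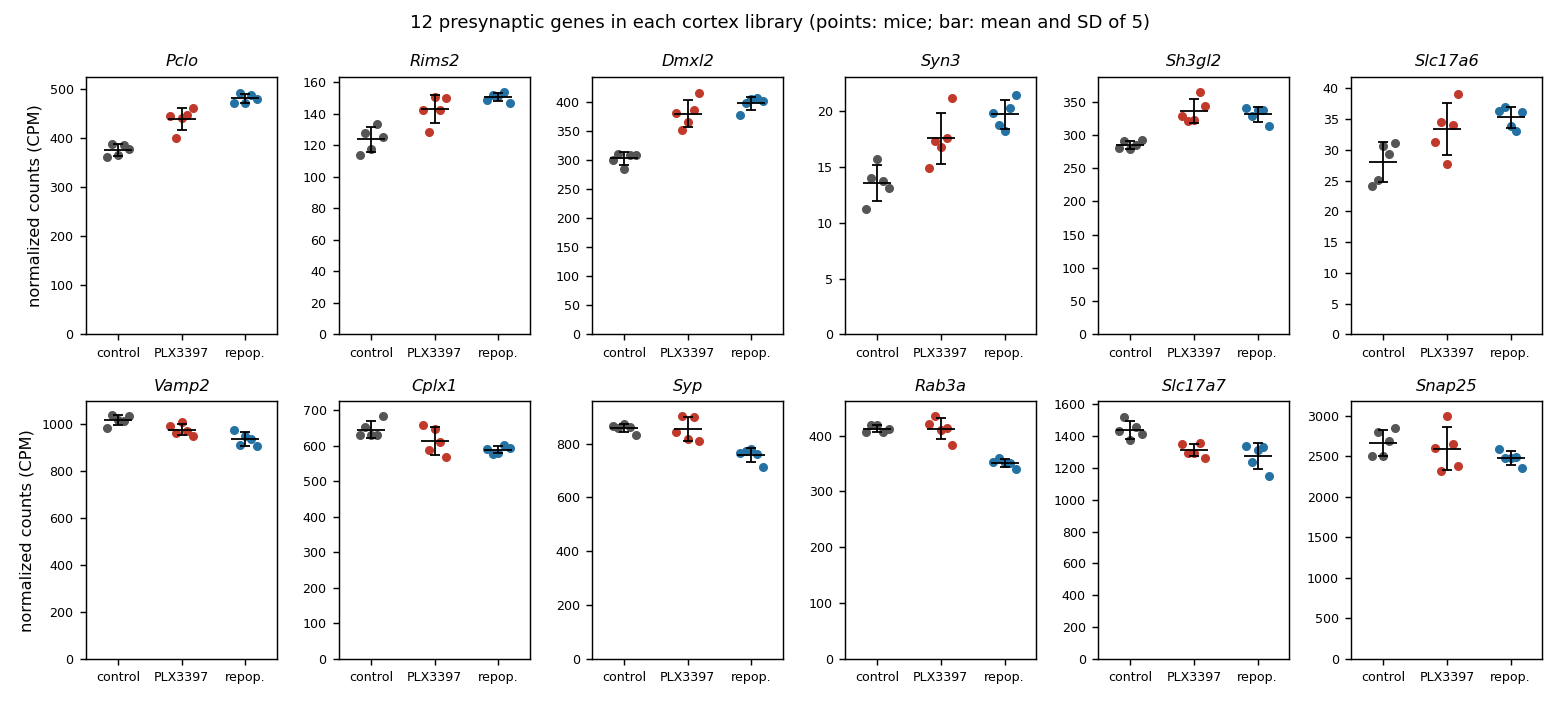
CPM of 12 members in each library, 1 point per mouse and a bar at the group mean, for control, PLX3397 and repopulation. Pclo, Rims2, Dmxl2, Syn3, Sh3gl2 and Slc17a6 sit higher after repopulation than in control, and Vamp2, Cplx1, Syp, Rab3a and Slc17a7 sit lower.

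Of the 8 fusion genes, 5 were lower after repopulation than in control, Vamp1, Vamp2, Stx1a, Napa and Cplx1, and 1 was higher, Nsf. Over all tested genes 15.2% were called lower and 13.9% higher after repopulation. Of protein-coding genes from 2 to 4 kb, the class of the 5 lower genes, 18.1% were lower there. On PLX3397 only Nsf was called, where 8.19% of all genes were higher and 8.35% lower. The median log2 fold change of the 8 was -0.05 on PLX3397 and -0.11 after repopulation. None of the 8 was called between the treated groups. With the correction for messenger RNA length and GC content none of the 8 was called in either comparison with control. Vamp1 was then at -0.12 after repopulation, in place of -0.14, and Nsf at 0.08 on PLX3397, in place of 0.10. The other lower genes were between -0.08 and -0.04 after repopulation.

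Vamp2 is the main v-SNARE of cortical vesicles (chromosome 11, 69088490 to 69092384, plus strand). Its values were 982, 1035, 1014, 1013 and 1031 CPM in control, 989, 959, 1008, 968 and 948 CPM on PLX3397 and 975, 908, 949, 936 and 904 CPM after repopulation. The PLX3397 mice spanned the gap between the other groups, and the repopulation mice all lay below the lowest control. Vamp2 fell by 0.12 ± 0.03 log2 units after repopulation (edgeR adjusted p = 0.00398). On PLX3397 the difference was -0.06 (95% interval -0.12 to 0.001; edgeR adjusted p = 0.203).

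Complexins clamp and trigger the assembled SNARE complex. Cplx1 (chromosome 5, 108518554 to 108550024, minus strand) was at 630.4, 653, 632, 629.6 and 685 CPM in control and 659, 588, 648, 610.2 and 567 CPM on PLX3397. After repopulation it was at 592, 578, 579.6, 601 and 595 CPM, all below the lowest control. Cplx1 fell by 0.13 ± 0.04 log2 units there (edgeR adjusted p = 0.00825). The paralog Cplx2 (chromosome 13, 54371349 to 54383917, plus strand) was at 1604, 1564, 1543, 1525 and 1526 CPM in control. It was at 1423, 1498, 1498, 1399 and 1545 CPM on PLX3397 and at 1548, 1525, 1589, 1539 and 1628 CPM after repopulation. Cplx2 was not called: its log2 difference was -0.08 ± 0.03 on PLX3397 (edgeR adjusted p = 0.109) and 0.01 ± 0.03 after repopulation (adjusted p = 0.814).

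Snap25, a t-SNARE of the plasma membrane (chromosome 2, 136713453 to 136782428, plus strand), was at 2498, 2797, 2505, 2681 and 2849 CPM in control. The PLX3397 mice had 2604, 2317, 2989.5, 2653 and 2381 CPM and the repopulation mice 2583, 2479, 2472, 2495 and 2349.6 CPM. All groups overlapped, and the PLX3397 mice held both the lowest and the highest value. The log2 difference after repopulation was -0.11 (95% interval -0.22 to 0.01; edgeR adjusted p = 0.178).

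Nsf, the ATPase that takes spent SNARE complexes apart (chromosome 11, 103821782 to 103954056, minus strand), was at 929, 915, 899, 913 and 914 CPM in control. On PLX3397 it was at 967, 970.0, 954, 969.6 and 1033 CPM and after repopulation at 989, 966, 981, 995 and 955 CPM. Every treated mouse lay above every control. Nsf was higher by 0.10 ± 0.03 in each (edgeR adjusted p = 0.0199 on PLX3397 and 0.0131 after repopulation), while Napa, the adaptor that brings it to the SNAREs, fell by 0.10 after repopulation. The PLX3397 call of Nsf was lost without control mouse 3 (edgeR adjusted p = 0.0546) or PLX3397 mouse 5 (0.0642).

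Vamp1 stood at 164 ± 9.17 CPM in control and 148 ± 3.3 after repopulation, and Stx1a, the syntaxin partner of Snap25, at 279 ± 19.2 and 248 ± 13.3 CPM. Both calls hung on few libraries. That of Vamp1 was lost without control mouse 2 or 5 or repopulation mouse 1 or 5 (edgeR adjusted p = 0.0515 to 0.0736), and that of Stx1a without control mouse 2 (0.054).

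Proteins of the vesicle itself were called in both directions after repopulation. On PLX3397, Syn3, Sv2b, Syt1 and Dmxl2 were higher than in control (30.8%) and none of the 13 was lower. The shares of all genes were 8.19% and 8.35%. After repopulation Syn3, Syt1 and Dmxl2 were higher (23.1%) and Syp and Rab3a were lower (15.4%). There 13.9% and 15.2% of all genes were called, so that the lower share was near that of all genes. The median log2 fold change of the 13 was 0.03 in each comparison with control. Syp, Rab3a and Sv2b were lower, and Syt7 higher, after repopulation than on PLX3397, with 8.98% and 7.61% of all genes.

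Dmxl2 encodes rabconnectin-3 alpha, a vesicle protein that binds the Rab3 regulators and helps assemble the proton pump (chromosome 9, 54365158 to 54501626, minus strand). It was at 299.7, 311, 285, 308 and 308 CPM in control. The values were 379.9, 352, 365, 385 and 415 CPM on PLX3397 and 378, 397, 404, 406 and 401 CPM after repopulation. Each treated mouse lay above every control. Dmxl2 was higher by 0.33 ± 0.04 log2 units on PLX3397 (edgeR adjusted p = 5.76e-07) and 0.39 ± 0.04 after repopulation (adjusted p = 4.9e-07), that is at 125% and 131% of control.

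Rab3a, the GTPase that vesicles carry to the active zone (chromosome 8, 70754679 to 70758677, plus strand), was lower after repopulation than in either of the other groups. Its values were 406, 419, 419, 408 and 412 CPM in control and 421, 435, 409.7, 413 and 383 CPM on PLX3397. After repopulation they were 353, 359.9, 351, 352 and 341 CPM. The 5 repopulation mice lay below all others, and PLX3397 mice lay on both sides of control. Rab3a fell by 0.23 ± 0.03 log2 units against control (edgeR adjusted p = 9.49e-06) and by 0.23 ± 0.03 against PLX3397 (adjusted p = 9.01e-06). On PLX3397 the log2 difference was -0.001 (95% interval -0.06 to 0.06; edgeR adjusted p = 0.987), and with the length and GC correction it was 0.08 and called higher.

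Syp encodes synaptophysin, an abundant membrane protein of the vesicle (chromosome X, 7638471 to 7653256, plus strand). It was at 866, 859, 873, 863 and 833 CPM in control, 842, 902, 816, 899 and 809 CPM on PLX3397 and 765, 772, 780.1, 762 and 714 CPM after repopulation. As with Rab3a, only the repopulation mice stood apart, all of them below every other library. Syp fell by 0.18 ± 0.03 log2 units against control (edgeR adjusted p = 0.000334) and by 0.17 ± 0.03 against PLX3397 (adjusted p = 0.00108). On PLX3397 the log2 difference from control was -0.01 (95% interval -0.08 to 0.06; edgeR adjusted p = 0.91). An annotated antisense gene, Gm14703, overlaps 16.8% of the exon bases of Syp.

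Syn3, the least abundant of the synapsins (chromosome 10, 86055125 to 86498896, minus strand), was at 11.2, 14.1, 15.7, 13.7 and 13.1 CPM in control. The PLX3397 mice had 14.9, 17.3, 16.8, 17.6 and 21.2 CPM and the repopulation mice 19.8, 18.7, 18.2, 20.3 and 21.4 CPM. The repopulation mice lay above all controls, and PLX3397 mouse 1 lay among the controls. Syn3 was higher by 0.38 ± 0.09 log2 units (edgeR adjusted p = 0.00365) and by 0.55 ± 0.08 (adjusted p = 4.35e-05). Timp3 lies within Syn3 on the opposite strand and overlaps 14.1% of its exon bases. Its own log2 difference from control was 0.01 on PLX3397 (edgeR adjusted p = 0.911) and 0.14 after repopulation (0.0239).

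The more abundant synapsins were not called in any comparison. Syn1 was at 741 ± 28.9 CPM in control, 716 ± 22.4 on PLX3397 and 743 ± 31.4 after repopulation, and Syn2 was at 496 ± 28.9, 506 ± 31.5 and 502 ± 15 CPM. Syt1, the calcium sensor of fast release, rose from 1861 ± 106 CPM to 2048 ± 97.3 on PLX3397 and 2083 ± 38.1 after repopulation. The Syt1 call on PLX3397 was lost without control mouse 1 (edgeR adjusted p = 0.0508), and both calls were lost with the length and GC correction, at 0.07 and 0.07 in place of 0.14 and 0.16. Sv2b, an SV2 glycoprotein, rose from 555 ± 16.9 to 606 ± 24.5 CPM on PLX3397 and stood at 563 ± 21.5 after repopulation, with a PLX3397 log2 difference of 0.13 that was 0.05 and not called with the correction. The call of Syt7 between the treated groups (429 ± 10.1 CPM on PLX3397, 461 ± 23.2 after repopulation) was lost when any of 12 single libraries was left out, with adjusted p up to 0.143 without repopulation mouse 1. Sv2a, Syt2, Rph3a and Doc2a were not called in any comparison. Doc2a shares 39.4% of its exon bases with Ino80e on the other strand.

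The 3 vesicular transporters mark which transmitter a vesicle carries, and the 2 for glutamate were called in opposite directions. Slc17a7 encodes VGLUT1 of cortical glutamate neurons (chromosome 7, 45163949 to 45176142, plus strand) and stood at 1432, 1522, 1376, 1457 and 1411 CPM in control. It was at 1348, 1295, 1296, 1356 and 1263 CPM on PLX3397 and at 1338, 1237, 1314, 1332 and 1146 CPM after repopulation. Every treated mouse lay below every control. Slc17a7 fell by 0.13 ± 0.04 log2 units on PLX3397 (edgeR adjusted p = 0.0186) and by 0.18 ± 0.04 after repopulation (adjusted p = 0.00115). The first of these calls was lost without control mouse 2 (edgeR adjusted p = 0.0611) and with the length and GC correction.

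Slc17a6 encodes VGLUT2, the transporter of thalamic inputs and of other subcortical glutamate neurons (chromosome 7, 51622006 to 51671119, plus strand). Its levels were low, at 24.1, 25.1, 30.6, 29.3 and 31.0 CPM in control, 31.2, 34.6, 27.7, 34.1 and 39.1 CPM on PLX3397 and 36.3, 37.0, 33.8, 33.1 and 36.1 CPM after repopulation. Only the repopulation mice lay wholly above control. Slc17a6 was higher by 0.25 ± 0.08 log2 units on PLX3397 (edgeR adjusted p = 0.0448) and by 0.34 ± 0.08 after repopulation (adjusted p = 0.00477). Its PLX3397 call was lost when any of 10 single libraries was left out, with adjusted p up to 0.111 without control mouse 1, and with the length and GC correction, at 0.18. The sum of 9 thalamic markers, of which none was at 0, was 71.4 to 79.6 CPM in control mice, 69.7 to 82.5 in PLX3397 mice and 74.2 to 108 in repopulation mice, and the part of thalamic tissue in this result was not tested.

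The ratio of Slc17a7 to Slc17a6 reads was 52.0 ± 7.5 in control, 39.9 ± 5.52 on PLX3397 and 36.2 ± 3.59 after repopulation (SD, n = 5). The ratio ranged from 45.0 to 60.6 in control and from 31.8 to 40.3 after repopulation, without overlap. On PLX3397 it ranged from 32.3 to 46.8 and overlapped control. The ratio is of raw reads, without the length and GC correction. Slc32a1 encodes VGAT, the transporter for GABA and glycine (chromosome 2, 158610767 to 158615748, plus strand), and 24.9% of its exon bases overlap Gm14205 on the opposite strand. Its values were 92.6, 101, 109.5, 95.3 and 85.2 CPM in control, 103, 107, 95.1, 90.3 and 113 CPM on PLX3397 and 93.5, 107, 95.1, 96.5 and 131 CPM after repopulation. The groups overlapped, and mouse 5 of repopulation was the highest. The log2 difference from control was 0.07 (95% interval -0.12 to 0.27; edgeR adjusted p = 0.688) on PLX3397 and 0.12 (-0.08 to 0.31; adjusted p = 0.431) after repopulation. Mouse 5 of repopulation also had the highest sum of 10 striatal markers, 1881 CPM. That sum ran from 1016 to 1544 CPM among control mice and from 1223 to 1648 among PLX3397 mice. The lowest repopulation sum was 1055 CPM. Within each group the highest striatal sum and the lowest Slc17a7 level fell on the same mouse: control mouse 3, PLX3397 mouse 5 and repopulation mouse 5. The lowest sum and the highest Slc17a7 level shared a mouse on PLX3397 only. The part of striatal tissue in the Slc17a7 and Slc32a1 values was not tested.

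Of the 4 endocytosis members, Sh3gl2 and Synj1 were higher in both treated groups and Dnm1 and Amph were called in neither. Among all genes 8.19% were called higher on PLX3397 and 13.9% after repopulation. Sh3gl2 encodes endophilin A1, which bends the vesicle neck and recruits synaptojanin (chromosome 4, 85205126 to 85639195, plus strand). It was at 280.1, 290.3, 279, 285 and 292 CPM in control, 328, 321, 322, 364 and 344 CPM on PLX3397 and 339.7, 328, 337, 337 and 313 CPM after repopulation. Treated mice lay wholly above control. Sh3gl2 was higher by 0.24 ± 0.04 log2 units (edgeR adjusted p = 3.28e-05) and 0.21 ± 0.04 (adjusted p = 6.16e-05).

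Synj1 encodes synaptojanin 1, a lipid phosphatase that lets new vesicles shed clathrin (chromosome 16, 90936092 to 91011308, minus strand). Its values were 495, 511, 473, 517 and 490.2 CPM in control, 543, 536, 537, 552 and 576 CPM on PLX3397 and 581, 567, 574, 559 and 563 CPM after repopulation. Control and treated mice did not overlap. Synj1 was higher by 0.14 ± 0.03 log2 units (edgeR adjusted p = 0.00217) and 0.19 ± 0.03 (adjusted p = 4.35e-05), and with the length and GC correction neither was called. Dnm1, the dynamin that pinches vesicles off, had a log2 difference of 0.03 on PLX3397 (95% interval -0.03 to 0.10) and 0.02 after repopulation (-0.04 to 0.09).

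Set against each other, the long scaffold genes stood higher than the shorter fusion and vesicle genes after repopulation. The longest annotated protein-coding messenger RNA ran from 4647 to 20084 bp (median 8822.5) in the 10 active zone genes and from 1556 to 10614 bp (median 3766) in the 21 fusion and vesicle genes. A score per library, the median log2 level of the active zone genes relative to control less that of the fusion and vesicle genes, was 0.01 ± 0.02 in control (SD, n = 5). It was 0.06 ± 0.06 on PLX3397 and 0.15 ± 0.02 after repopulation. Control libraries spanned -0.01 to 0.03 and repopulation libraries 0.13 to 0.17, without overlap, while those on PLX3397 spanned -0.0009 to 0.16, the highest being mouse 5. The group means were 0.007, 0.05 and 0.15 for the active zone genes alone and -0.002, -0.005 and -0.003 for the fusion and vesicle genes alone.

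**Figure D3:**
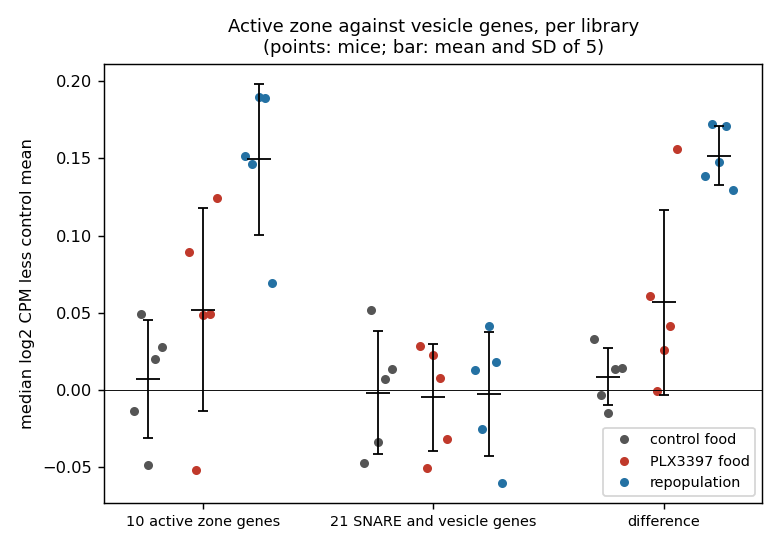
Scores per library in the 3 groups, 1 point per mouse: the median log2 level relative to control of the 10 active zone genes, of the 21 fusion and vesicle genes, and the first less the second, with bars for the mean and SD of 5 mice. Repopulation libraries lie between 0.13 and 0.17 in the last of these, all above control.

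Ratios of single pairs are given as a description, since these members are in the scores and were called in opposite directions. The ratio of Pclo to Rab3a reads, the longest and the shortest messenger RNA of the set, was 0.910 ± 0.0287 in control, 1.07 ± 0.101 on PLX3397 and 1.37 ± 0.0293 after repopulation. The ratio of Rims2 to Syp reads was 0.144 ± 0.0102, 0.168 ± 0.018 and 0.198 ± 0.00498 in the same order.

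Messenger RNA length ordered changes across the whole transcriptome in the same direction. After repopulation the median log2 fold change of all protein-coding genes was -0.15 under 2 kb (3515 genes), -0.03 from 2 to 4 kb (6087), 0.08 from 4 to 8 kb (4387) and 0.18 at 8 kb or more (882). In the longest class 56.8% of genes were called higher and 1.36% lower, and in the shortest 2.48% and 37.2%. From 2 to 4 kb 7.84% of protein-coding genes were called higher and 18.1% lower, and from 4 to 8 kb 28.3% and 5.72%. Among the members, of 15 from 2 to 4 kb, 2 were higher and 7 lower. Of 15 from 4 to 8 kb, 7 were higher and none lower. At 8 kb or more, 3 of 7 were higher and none lower. The member under 2 kb is Rab3a. The members' medians were -0.10 from 2 to 4 kb and 0.16 from 4 to 8 kb, farther from 0 than those of all genes of that length, and 0.11 at 8 kb or more, closer to 0.

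Across the 38 members, the log2 fold change after repopulation correlated with log2 messenger RNA length at r = 0.59 (rho = 0.66) and with log2 genomic span at r = 0.64 (rho = 0.67). On PLX3397 these values were r = 0.29 (rho = 0.32) for messenger RNA length and r = 0.58 (rho = 0.64) for span. GC content of the messenger RNA gave r = -0.65 (rho = -0.66) on PLX3397 and -0.56 (rho = -0.56) after repopulation. Over 14871 protein-coding genes the correlation with messenger RNA length was r = 0.11 (rho = 0.28) and r = 0.37 (rho = 0.47). With span it was r = 0.11 (rho = 0.29) on PLX3397 and r = 0.31 (rho = 0.38) after repopulation. With GC content it was r = -0.11 (rho = -0.38) and r = -0.19 (rho = -0.23). The points are genes of the same 15 libraries, length, span and GC content go together, and they are not independent replicates.

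**Figure D4:**
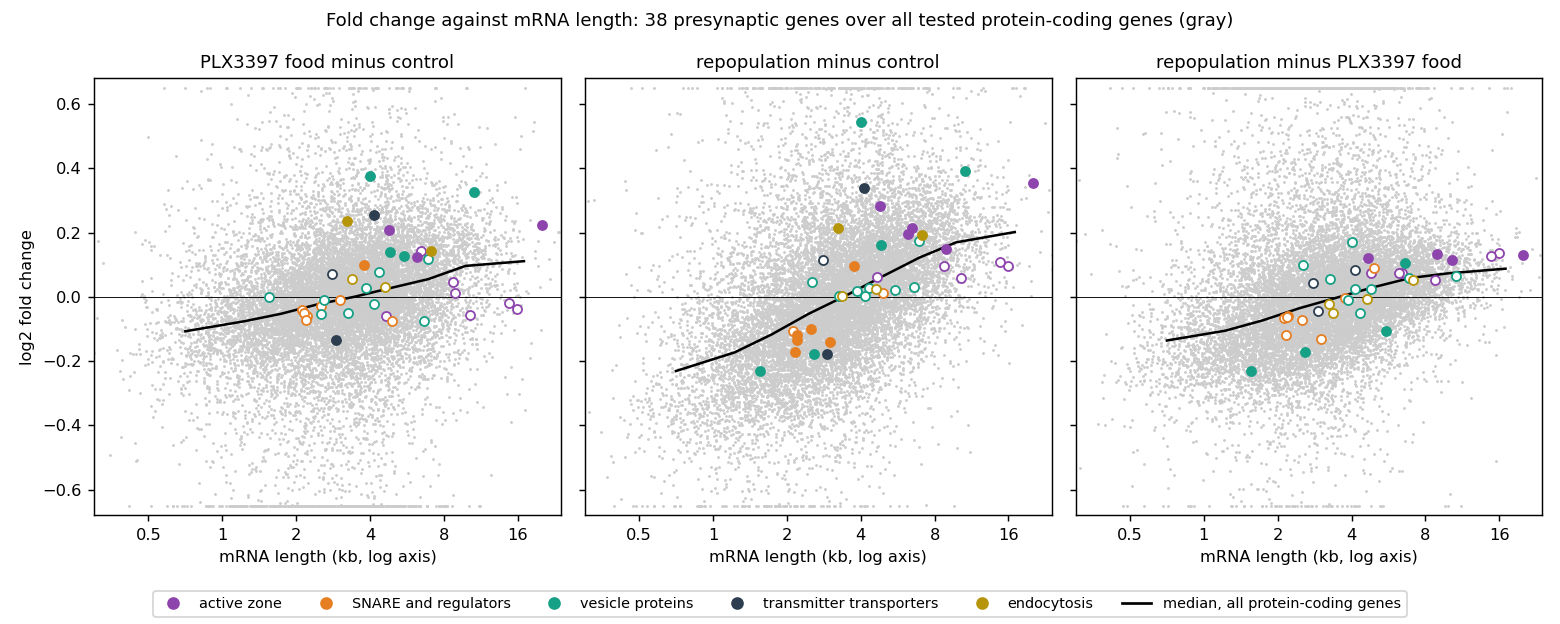
Log2 fold change against messenger RNA length (log scale, kb) in the 3 comparisons. Gray points are all protein-coding genes tested, with values past 0.65 in either direction drawn at the edge and the few genes outside the length axis left out. The black line is their median by length bin, and colored points are the members by role, filled where called. After repopulation the line climbs from left to right, and Rab3a and Pclo lie at the ends of the members.

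Each library's trends with length and GC content were then fitted over all genes and removed. The split between scaffolds and vesicle genes narrowed after repopulation, where the score went from 0.15 to 0.06. On PLX3397 the score changed sign, from 0.06 to -0.06. The spread of the corrected scores over libraries is not given here. On PLX3397, 7 members were higher (4.39% of all genes) and 2 lower (6.76%). After repopulation 6 were higher (8.15%) and 4 lower (13.9%), and between the treated groups 1 was higher (5.67%) and 6 lower (8.63%) after repopulation.

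Rims2, Syn3, Dmxl2 and Sh3gl2 were called higher with and without the correction in each comparison with control. Their corrected log2 differences after repopulation were 0.21 for Rims2, 0.49 for Syn3, 0.22 for Dmxl2 and 0.18 for Sh3gl2. Pclo kept its call after repopulation at 0.16, and Slc17a6 kept its at 0.26. Syp, at -0.11, Rab3a, at -0.13, and Slc17a7, at -0.11, remained lower after repopulation, where Sv2b, at 0.02 and not called without the correction, was also called lower at -0.08. Several calls appeared only with the correction: on PLX3397 Sv2a, Rab3a and Dnm1 were higher and Unc13b, at -0.18, and Ppfia2, at -0.13, were lower. Between the treated groups Pclo remained higher, Syp, Sv2b and Rab3a remained lower, and Vamp1, Napa and Sv2a were added to the lower calls.

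Other genes of the pathway were read from lists of 118 genes in all. Against control each list held calls in each direction, in unequal numbers. After repopulation 13.9% of all tested genes were called higher and 15.2% lower, and 8.15% and 13.9% with the correction. On PLX3397 the shares of all genes were 8.19% and 8.35%. Of 24 other active zone and presynaptic adhesion genes, 13 were higher (54.2%) and 1 lower (4.17%) after repopulation, and their median log2 fold change was 0.17. On PLX3397, 6 were higher (25%) and 2 lower (8.33%). The highest ranked by p after repopulation were Ptprd, a receptor phosphatase of the presynaptic membrane, at 0.26, the neurexin Nrxn3 at 0.21 and Cadps, a priming factor of dense core vesicles, at 0.20. With the correction 5 of the 24 were higher and 1 lower, and Cadps, at 0.11, was called where Ptprd and Nrxn3 were not, at 0.08 and 0.07. Of 32 other vesicle and fusion genes, 6 were higher (18.75%) and 8 lower (25%) after repopulation, and 1 and 8 with the correction. The tomosyns Stxbp5l, at 0.55, and Stxbp5, at 0.23, which hold SNAREs in an unproductive complex, were higher, and the vesicle protein Svop, at -0.24, was lower. With the correction Stxbp5l, at 0.47, and Svop, at -0.20, were still called and Stxbp5, at 0.06, was not. On PLX3397 Stxbp5l, at 0.41, and Rab27b, at 0.26, were higher and Syngr3, at -0.19, was lower. Rab27b and Syngr3 were not called with the correction, at 0.13 and -0.08.

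Subunits of the vacuolar proton pump, which acidifies the vesicle so that transporters can fill it, were mostly lower after repopulation. Of 17 pump subunits and assembly factors, 11 were lower (64.7%) and 2 higher (11.8%) than in control, where 15.2% and 13.9% of all genes were. The median log2 fold change of the 17 was -0.14. Against PLX3397, 12 were lower (70.6%, with 8.98% of all genes) and none higher. The count without the choroid-rich libraries, where 260 of 19181 genes were called lower, is not given here. With the length and GC correction these counts were 9 lower and 1 higher against control, with 13.9% and 8.15% of all genes. Against PLX3397 the corrected count was 11 lower, with 8.63% of all genes. Atp6v0d1, at -0.29 ± 0.03, and Atp6v1e1, at -0.22 ± 0.03, were among the lower subunits with the smallest p (edgeR adjusted p = 1.2e-06 and 1.89e-05), as was Atp6v1f, at -0.36 ± 0.05 (adjusted p = 1.89e-05). On PLX3397 5 of the 17 were higher, among them Atp6v1a at 0.18, and 2 were lower, with 8.19% and 8.35% of all genes. Assembly factors of the pump related to Dmxl2 were split: its paralog Dmxl1 was higher by 0.25 on PLX3397 and 0.31 after repopulation, and Wdr7, rabconnectin-3 beta, by 0.16 and 0.17. Rogdi stood at -0.08 on PLX3397 and was lower after repopulation, at -0.14 (edgeR adjusted p = 0.00575). With the correction Dmxl1 was at 0.08 and 0.11, called after repopulation only, Wdr7 at 0.08 and 0.05, called on PLX3397 only, and Rogdi at 0.04 and -0.02, called in neither.

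Of 21 other endocytosis genes, 5 were higher (23.8%) and 7 lower (33.3%) after repopulation, with 13.9% and 15.2% of all genes. On PLX3397 5 were higher and 4 lower, with 8.19% and 8.35% of all genes. With the correction these counts were 3 and 6 after repopulation (8.15% and 13.9% of all genes). On PLX3397 they were 4 and 1 (4.39% and 6.76% of all genes). Without the correction, the chains of clathrin were called in opposite directions: the heavy chain Cltc was higher by 0.24 after repopulation, and the light chain Clta fell by 0.29. Ap2m1, a subunit of the adaptor AP2, fell by 0.23, also without the correction. On the other side of the synapse, 24 postsynaptic scaffold genes served as a comparison, with 5 higher (20.8%) and 3 lower (12.5%) after repopulation and a median of -0.009, where 13.9% and 15.2% of all genes were called. With the correction 2 were higher and 8 lower, with a median of -0.08, where 8.15% and 13.9% of all genes were called. Without the correction, Cnksr2, at 0.31, and Dlgap2, at 0.20, were higher and Nrgn, at -0.28, was lower.

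Levels between members were compared per kb of messenger RNA, in control. Snap25 stood first at 1260.0 CPM per kb, followed by Slc17a7 at 494, Vamp2 at 460.2 and Syt1 at 386, and the ranges of these 4 over the 5 mice did not overlap. Syp at 331, Cplx2 at 315, Dnm1 at 296 and Cplx1 at 295 came next, each overlapping its neighbour. Active zone genes were far lower than those just named, from 60.4 CPM per kb for Unc13a to 6.73 for Erc1. Among them Bsn was at 47.2, Rims2 at 25.8 and Pclo at 18.7. Syt7, at 68.1, and Vamp1, at 54.3, lay beside the highest of them. The length used was that of the longest annotated protein-coding messenger RNA. Unc13b, Slc17a6 and Erc1, at 6.82, 6.77 and 6.73, could not be ordered beyond their spread, and Syn3 was last at 3.39 CPM per kb. Relative to control the group means of the members lay between 91.1% (Slc17a7) and 129% (Syn3) on PLX3397 and between 85.2% (Rab3a) and 145% (Syn3) after repopulation.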

How the data were processed

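RNA of the cortex of 15 mice was sequenced, 1 library per mouse. The authors deposited raw read counts per gene symbol. FastQC, MultiQC, STAR, DESeq2, DESeq and the mm10 build are named per the submitters' processing notes, which state no roles. How reads were assigned to genes, and whether by strand, is not given in the sources used here. Tests ran on the deposited counts in edgeR 4.0.16 (R 4.3.3): filterByExpr, TMM factors, and a robust quasi-likelihood fit over all 15 libraries and 3 groups, adjusted over 18369 genes at 0.05. At the totals of 23413551 to 48617851 counts, depth limits mainly genes near 1 CPM, which no member was. No 2 libraries held identical values. Log2 levels for scores used a prior count of 2.

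Lengths, GC content and coordinates came from GENCODE release M21 (GRCm38, which is mm10), by symbol, for 97.8% of tested genes, and promoters from RefSeq, where the start nearest to the GENCODE start was taken. The correction fitted natural splines of log2 length and of GC content, 5 degrees of freedom each, in every library. Alternatives were DESeq2 1.42.0, other scaling and filters, only the 2 groups compared, a replicate block, each library left out, and, chosen after seeing the data, the 4 choroid-rich libraries left out. Mouse numbers did not pair the samples. Library values were given for the members with the 2 smallest adjusted p per role and comparison with control, and always for Pclo, Bsn, Snap25, Vamp2, Syp and the transporters. In each other list up to 3 genes by adjusted p per comparison were named. The other members were described by means or ranges, and Timp3, a gene overlapping a member, Rogdi and the GABA neuron markers were named after their values were seen. Members and lists were chosen with earlier results of these data known. The fits were tested on simulated data.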

Additional observations from a re-analysis of the deposited data

Results flagged for a closer look

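In 9 of the 114 groups of 5 libraries, 3 groups for each of 38 members, 1 library lay so far from the other 4 that Dixon's test at the 95% level, with a critical value of 0.71 for 5 samples, marked it. Chance marks about 1 in 20 groups. On PLX3397, mouse 2 was low for Rims1, at 279.9 CPM where the other 4 had 338 to 351, and for Ppfia3, at 215 CPM against 234 to 238. Without that mouse Rims1 was called higher on PLX3397 (edgeR adjusted p = 0.000748, and 0.0733 with it). Mouse 5 on PLX3397 was high for Erc2, at 243 CPM against 211 to 215, and for Nsf, at 1033 CPM against 954 to 970.0. Without it neither gene was called higher on PLX3397 (edgeR adjusted p = 0.0718 for Erc2 and 0.0642 for Nsf). Erc2 also had a low control, mouse 5 at 193 CPM against 202 to 205, without which its PLX3397 call was lost (edgeR adjusted p = 0.0588). Mouse 5 of repopulation was low for Syp, at 714 CPM against 762 to 780.1, and for Sv2b, at 525 CPM against 567 to 579. Control mouse 1 was high for Ppfia2, at 121 CPM against 109 to 112, and PLX3397 mouse 3 was low for Doc2a, at 21.7 CPM against 24.5 to 25.3.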

How the results depend on the processing

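With the length and GC correction, the calls were 7 higher and 2 lower members on PLX3397, 6 and 4 after repopulation, and 1 and 6 between the treated groups, and the score of active zone less fusion and vesicle genes was -0.0585 on PLX3397 and 0.0574 after repopulation. The direction of Ppfia2 turned on PLX3397 (-0.13) and after repopulation (-0.0245), as did that of Rab3a on PLX3397 (0.0835) and Sv2b after repopulation (-0.0834). The correction with a replicate block gave 5 and 2 members on PLX3397, 6 and 3 after repopulation and 1 and 4 between the treated groups. Of 18369 genes 698 and 1190, 1370 and 2393, and 964 and 1415 were then called, in the same order. Ppfia2 was again at -0.13 and -0.0248. The replicate block alone gave 11 and 1, 12 and 7, and 4 and 2 members. The counts over all genes were 1376 and 1456, 2410 and 2670, and 1312 and 1489. This block ended the calls of Vamp1 after repopulation and of Sv2b and Syt7 between the treated groups. Deviations of same-numbered mice correlated at -0.13 to 0.10 over 15 pairs, and 1 of 15 libraries correlated best with its own number. With no filter on low counts 5 members were lower between the treated groups, where 1653 of 36695 genes were. Without the 4 choroid-rich libraries 0 were higher there, where 589 of 19181 genes were. Splitting members into the longest and shortest 19 gave a score of 0.0869 on PLX3397 and 0.18 after repopulation. The PLX3397 score, 0.06, was 0.0228 with the mean over members in place of the median and 0.0988 without the choroid-rich libraries. With each replicate left out, the counts on PLX3397 were 8 to 11 higher, fewest without PLX3397 mouse 5, and 0 to 1 lower, 0 without control mouse 2. After repopulation they were 12 to 13 and 6 to 8. Between the treated groups they were 2 to 9 higher, with 2 without PLX3397 mouse 2 or repopulation mouse 1, 3 or 4 and 9 without PLX3397 mouse 5, and 2 to 5 lower. The scores were 0.03 (without PLX3397 mouse 5) to 0.08 on PLX3397 and 0.14 to 0.16 after repopulation. The cause of these differences was not tested. Other settings (DESeq2, other scaling, a mean of at least 1 CPM, only the 2 groups compared) left every count of called members within 1.5 times its value.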
